A study of Mus musculus with 4 samples.

Results

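The values of p53 target genes were examined on 4 Affymetrix mouse arrays, 1 of a clone of induced pluripotent stem cells (iPSCs) and 3 of embryonic stem cell (ESC) lines made from that clone by nuclear transfer (NT). Of 10 chosen genes (Trp53, Pmaip1, Perp, Trp53inp1, Cdkn1a, Mdm2, Ccng1, Bax, Bbc3 and Sesn2), 8 had probe sets that the platform annotation assigned to them alone. These were 15 probe sets out of 45037 in all. Trp53 and Bax had no probe set named in that annotation and were not analysed here. The clone, Adeno-1, had been reprogrammed with adenoviral vectors from fibroblasts of the tail tip. The lines NT-1, NT-2 and NT-3 came from cloned blastocysts that received Adeno-1 nuclei, so all 4 arrays trace back to 1 clone. Whether the lines kept the same chromosome number was not tested. All cells grew on irradiated mouse embryonic fibroblasts in medium with 15% serum and LIF, and were preplated for 45 minutes to take the fibroblasts away. The sources used here name no strain, genotype or passage.

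The genes were chosen with their values on these arrays already known: for being higher in the NT-ESC lines than in Adeno-1, and Pmaip1 for its level in NT-3. Differences between Adeno-1 and the lines, and between NT-3 and the rest, are therefore given for them as a description without a test. There was 1 array per line, and nothing in the labels says that the lines were derived independently. The SDs below are over the 3 NT-ESC arrays.

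The transcription factor p53 is stabilised after DNA damage and other stress and switches on genes that halt the cell cycle, trigger apoptosis or aid repair. It also induces its own inhibitors, above all Mdm2, the ubiquitin ligase that marks p53 for destruction, so that its targets rise and fall within a feedback loop. In reprogramming p53 acts as a barrier, and in mouse embryonic stem cells p53 activated by damage is known to repress Nanog.

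Levels are on a log2 intensity scale rebuilt from the deposited values under an assumed array mean of 7. A mean of 6 would make every log2 difference 14.3% smaller, and the largest mean that the scanner allows, 7.89, would make it 12.7% greater. Probe sets whose mean reached 6.83, the median over the whole table, are referred to as bright. All 4 arrays carried the pluripotent markers: 10 marker genes ranged from 11.01 to 13.78, with summed levels of 121.5 in Adeno-1 and 122.0 to 122.3 in the lines. The 16 fibroblast and feeder markers summed to 125.8 in Adeno-1, 125.0 in NT-1, 127.1 in NT-2 and 125.9 in NT-3. They were not absent: Col1a2 stood at 10.80 in Adeno-1 and at 10.81, 11.11 and 10.83 in the lines, and Fap stood between 4.93 and 5.28 (both picked with their values in view). On bulk arrays a larger share of expressing cells and more RNA per cell cannot be told apart. The feeder sum was highest in NT-2, lowest in NT-1 and within 0.1 of Adeno-1 in NT-3, the line with the largest differences below. Adeno-1 had the narrowest spread of levels over all probe sets (SD 1.947 against 1.968 to 1.977). It also had the lowest signals of the hybridization controls CreX, BioB, BioC and BioDn. CreX-3 stood at 13.43 against 13.50 to 13.66 in the lines, and BioB-3 at 8.44 against 8.50 to 8.82. BioC-3 stood at 10.16 against 10.26 to 10.53, and BioDn-3 at 12.09 against 12.23 to 12.40. The part of this in the differences below was not tested. With quantile normalization, which gives every array the same spread, the median difference of the 8 genes between the lines and Adeno-1 was 0.297, against 0.339 without it.

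Promoter windows, from 250 bases before to 50 bases after an annotated start, were available for 5 of the 8 measured genes. They are shown here because they carry sequence matches to the p53 consensus in genes whose values follow. A p53 response element is a pair of 10-base half-sites, each with a core of C, 2 bases that are A or T, and G. The windows were searched for a perfect match to the half-site consensus, which reads the same on both strands, and for 2 abutting half-sites with both cores intact and at most 3 mismatches in the 12 flanking positions. Overlapping matches were all counted. A half-site was found in 3 of the 5 genes (Mdm2, Ccng1 and Cdkn1a), in 3 of their 8 windows (37.5%), against 8.36% of all 32851 windows. An abutting pair was found in 2 genes (Bbc3 and Cdkn1a), in 2 of the 8 windows (25%), against 0.572% of all windows. Since the genes were listed as p53 targets, nothing is read from these gaps to all windows. Some windows of Bbc3 also overlap. None of the matches was tested for binding, and sequence outside these windows was not searched. The RefSeq sequences (GRCm38.p6, 5′ to 3′ on the gene's strand) have the matches in capitals. Cdkn1a is shown for the upstream of 2 annotated starts (chr17:29090729-29091028, plus strand), with half-sites that begin 73 and 51 bases before the start, the second of them followed directly by 10 bases with an intact core, so that this pair has 1 mismatch in all. The window of the other start held no match. Bbc3 (chr7:16309333-16309632, plus strand) has a pair with 3 mismatches that begins 97 bases before the start. Mdm2 (chr10:117710709-117711008, minus strand) has a half-site that begins 186 bases before the start, and Ccng1 (chr11:40755237-40755536, minus strand) has one that begins 185 bases before it.
Cdkn1a: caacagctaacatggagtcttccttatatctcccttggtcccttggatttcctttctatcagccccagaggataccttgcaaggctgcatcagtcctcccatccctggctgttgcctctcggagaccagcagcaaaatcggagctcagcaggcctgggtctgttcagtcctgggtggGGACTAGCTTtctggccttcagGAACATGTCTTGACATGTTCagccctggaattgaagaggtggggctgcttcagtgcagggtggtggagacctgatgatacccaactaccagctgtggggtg
Bbc3: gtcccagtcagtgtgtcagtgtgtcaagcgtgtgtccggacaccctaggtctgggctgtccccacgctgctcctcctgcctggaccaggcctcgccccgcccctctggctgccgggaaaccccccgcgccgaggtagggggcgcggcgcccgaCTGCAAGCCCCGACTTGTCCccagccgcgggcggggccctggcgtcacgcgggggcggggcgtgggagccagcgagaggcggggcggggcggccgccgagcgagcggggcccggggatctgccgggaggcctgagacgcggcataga
Mdm2: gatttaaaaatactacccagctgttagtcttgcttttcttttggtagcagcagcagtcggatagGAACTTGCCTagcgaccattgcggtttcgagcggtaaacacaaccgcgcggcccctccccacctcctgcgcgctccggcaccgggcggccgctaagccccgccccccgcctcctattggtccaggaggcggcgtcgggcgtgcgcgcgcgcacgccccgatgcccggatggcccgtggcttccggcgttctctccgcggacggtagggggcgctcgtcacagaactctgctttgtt
Ccng1: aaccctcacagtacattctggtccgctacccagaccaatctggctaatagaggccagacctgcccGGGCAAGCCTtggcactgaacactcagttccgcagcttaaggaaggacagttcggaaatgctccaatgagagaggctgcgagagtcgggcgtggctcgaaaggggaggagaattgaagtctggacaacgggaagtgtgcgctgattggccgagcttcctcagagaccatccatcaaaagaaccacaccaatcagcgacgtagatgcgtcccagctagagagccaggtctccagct

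Pmaip1, on chromosome 18, encodes Noxa, a BH3-only protein that neutralises Mcl1 and so promotes apoptosis. Its 1 probe set stood at 8.60 in Adeno-1, 8.64 in NT-1, 8.70 in NT-2 and 10.14 in NT-3. NT-1 and NT-2 lay within 0.10 of Adeno-1, and NT-3 stood apart from all 3 other arrays. NT-3 was 2.90-fold above Adeno-1 and 2.81-fold above the mean of the other arrays (1.49 on the log2 scale), the highest difference of that kind among all 45037 probe sets. Because of NT-3 the mean of the lines, 9.16 ± 0.85 (SD, n = 3), does not describe any one of them. For comparison, the median of the same difference was -0.0247 over 191 chromosome 18 genes brighter than 8.

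Bbc3 encodes Puma, another BH3-only protein that p53 induces, and its promoter holds the paired match shown above. It stood at 9.28 in Adeno-1 and at 9.41, 9.37 and 9.55 in NT-1, NT-2 and NT-3. The 4 arrays kept Pmaip1's extremes, with Adeno-1 lowest and NT-3 highest, but NT-3 was only 1.21-fold above Adeno-1. Over the mean of the other arrays NT-3 was 1.49 log2 higher for Pmaip1 and 0.20 log2 higher for Bbc3. Since Pmaip1 was chosen for its level in NT-3, nothing is read from the gap between these 2 BH3-only genes.

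Perp, a tetraspan membrane protein of desmosomes that also takes part in p53-dependent apoptosis, was higher in each line. It stood at 8.14 in Adeno-1, 8.62 in NT-1, 8.42 in NT-2 and 8.84 in NT-3. Adeno-1 lay below all 3 lines, which had a mean of 8.62 ± 0.21 (SD, n = 3). The lines were 1.40-, 1.22- and 1.62-fold above Adeno-1.

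Trp53inp1 encodes a stress protein that assists p53 and acts in autophagy, and its probe sets gave different pictures. The brighter one (1416926_at) stood at 10.39 in Adeno-1 and at 10.74, 10.83 and 10.80 in NT-1, NT-2 and NT-3, a narrow 10.79 ± 0.05 (SD, n = 3) in the lines. NT-3 was thus not set apart, with 0.14 log2 over the mean of the other arrays. The dimmer one (1416927_at) stood at 7.86 in Adeno-1, 8.14 in NT-1, 7.73 in NT-2 and 8.15 in NT-3. There NT-2 was the lowest array, so that the 2 probe sets of this gene differed in the sign of the NT-2 difference, 0.43 and -0.14.

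Cdkn1a encodes p21, the inhibitor of cyclin-dependent kinases through which p53 halts the cell cycle, and its upstream start carries the pair with the fewest mismatches among the 5 genes searched. The brighter probe set (1424638_at) stood at 9.98 in Adeno-1, 10.31 in NT-1, 10.39 in NT-2 and 10.31 in NT-3, and the lines were 1.26-, 1.33- and 1.26-fold above the clone. On this probe set NT-3 was level with NT-1. NT-3 was 0.08 log2 above the mean of the other arrays, and -0.043 against the mean of NT-1 and NT-2 with Adeno-1 left out. The dimmer one (1421679_a_at) stood at 8.74, 8.83, 9.07 and 9.21 in the same order and was highest in NT-3. Both probe sets had Adeno-1 as the lowest array, and they differed on where NT-3 stood among the lines.

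Mdm2, the inhibitor of p53 and itself a p53 target, had 3 probe sets. The brightest (1423605_a_at) stood at 10.59 in Adeno-1, 10.73 in NT-1, 10.84 in NT-2 and 11.15 in NT-3, which was 1.48-fold above Adeno-1. The second (1427718_a_at) stood at 9.76, 9.82, 9.71 and 10.23 in the same order. NT-3 was the highest array on both, by 0.43 and 0.46 log2 over the mean of the others, whereas NT-1 and NT-2 lay on either side of Adeno-1 on the second. The third (1457929_at), the 1 member probe set under the median level, stood between 5.90 and 5.98 on all arrays.

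Ccng1 encodes cyclin G1, a p53 target that recruits a phosphatase to Mdm2, and its 3 probe sets had the same extremes. The brightest (1450016_at) stood at 11.21 in Adeno-1, 11.31 in NT-1, 11.28 in NT-2 and 11.60 in NT-3. All 3 had Adeno-1 as the lowest and NT-3 as the highest array. NT-3 was 1.31-, 1.31- and 1.25-fold above Adeno-1, and NT-1 and NT-2 were between 1.03- and 1.16-fold above it.

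Sesn2, a sestrin that restrains mTORC1 signalling and responds to p53 and to the stress factor ATF4, went the other way on both probe sets. The brighter one (1451599_at) stood at 10.11 in Adeno-1, 10.09 in NT-1, 10.07 in NT-2 and 10.04 in NT-3. The dimmer one (1425139_at) stood at 9.27, 9.22, 9.08 and 9.09 in the same order. Adeno-1 was the highest array on both, and the largest gap, to NT-2 on the dimmer probe set, was 0.18 log2.

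**Figure D1:**
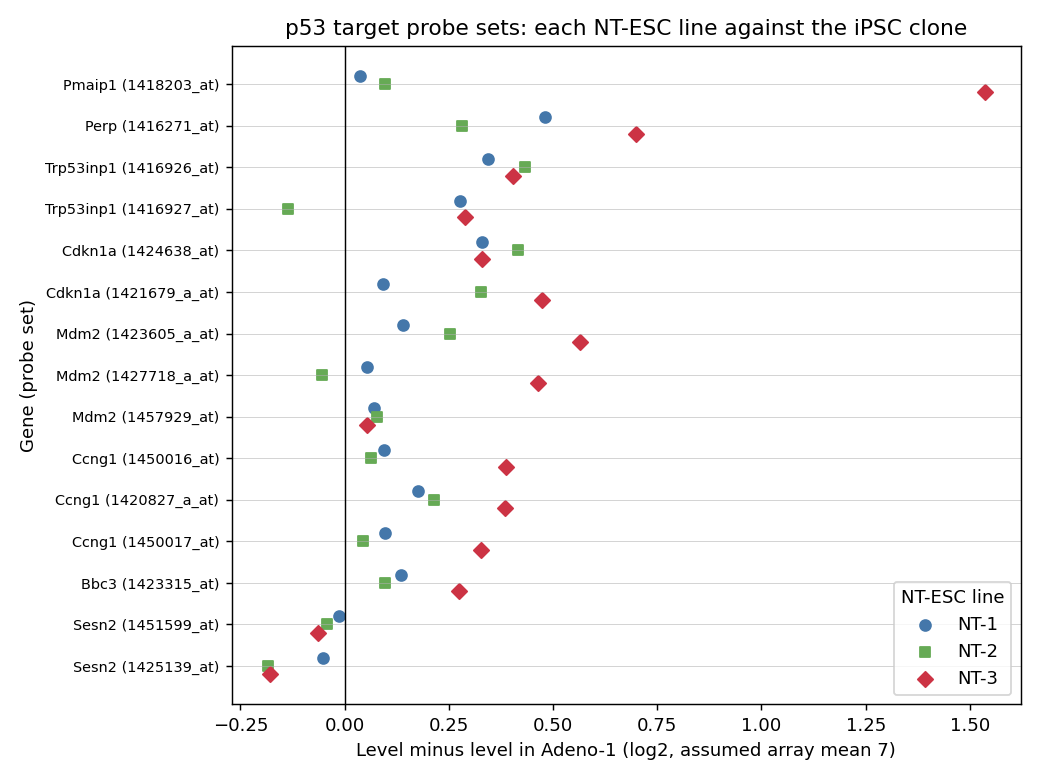
Difference in level from Adeno-1 (log2, x axis) for each of the 15 probe sets (y axis, with gene symbols) in NT-1 (blue circles), NT-2 (green squares) and NT-3 (red diamonds), 1 array each. Pmaip1 in NT-3, at 1.54, lies far outside the other values, and the 2 Sesn2 probe sets lie at or left of 0.

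Adeno-1 was the lowest array for 11 of the 15 probe sets. Over all probe sets Adeno-1 was lowest for 23.8%, and over the bright ones for 29.3%. NT-3 was highest for 10 of the 15, against 25.7% of all and 27.2% of bright probe sets. At least 1.2-fold over Adeno-1 were 4 probe sets in NT-1, 4 in NT-2 and 12 in NT-3, against 5.25%, 4.76% and 6.81% of all probe sets and 6.61%, 6.09% and 9.37% of bright ones; none was 1.2-fold under it in any line. Since the genes were picked for these differences, nothing is read from the gap to the background.

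With each gene represented by its brightest probe set, the median difference of the 8 genes between the mean of the lines and Adeno-1 was 0.34 log2. By line the medians were 0.14 in NT-1, 0.17 in NT-2 and 0.40 in NT-3. Without NT-3 the median for the lines was 0.16. For 7326 genes with a mean level of 8 to 12, the range in which the members lie, the medians were 0.04 in NT-1, 0.04 in NT-2 and 0.01 in NT-3. Against the other arrays NT-3 had a median of 0.27 for the 8 genes and -0.01 for the genes of that range. The genes fell into 3 patterns: Pmaip1, with NT-3 alone far above the rest; Mdm2, Ccng1 and Bbc3, with NT-3 highest and smaller gaps in NT-1 and NT-2; and Perp, Trp53inp1 and Cdkn1a, with NT-1 and NT-2 each at least 1.2-fold above Adeno-1 on the brightest probe set. Sesn2 had none of these. The patterns are a description of 1 array per line.

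**Figure D2:**
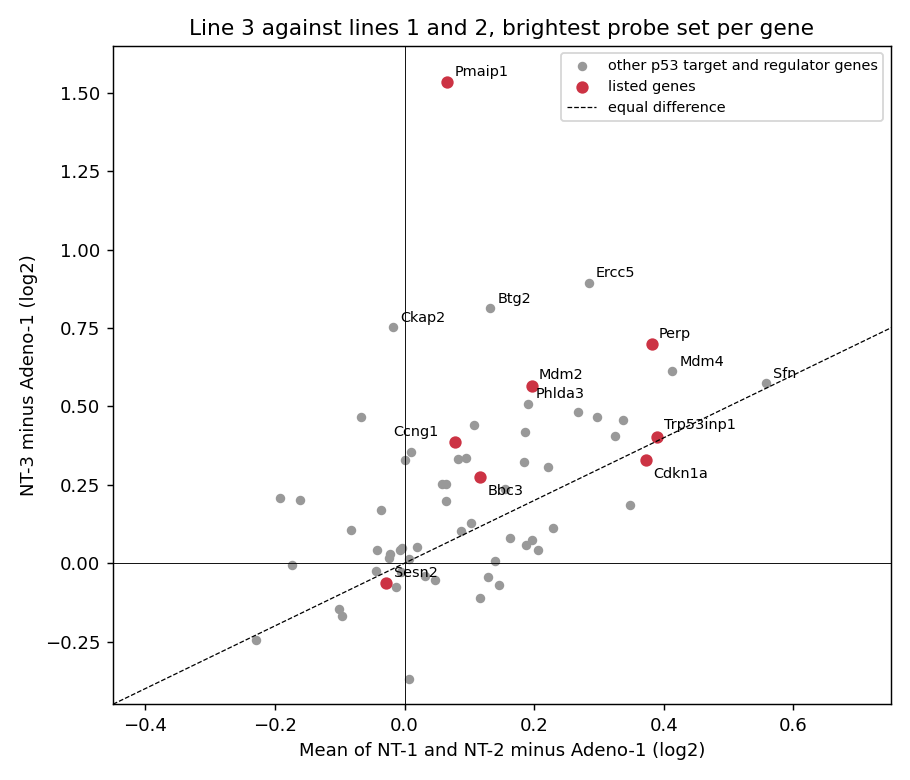
For each gene's brightest probe set, the mean difference of NT-1 and NT-2 from Adeno-1 (log2, x axis) against the difference of NT-3 from Adeno-1 (log2, y axis); red points are the 8 measured genes, grey points 56 other p53 target and regulator genes, and the dashed line marks equal differences. Pmaip1, at 1.54 on the y axis, Mdm2, Ccng1, Bbc3 and Perp lie above the dashed line, and Trp53inp1 and Cdkn1a lie near or below it.

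Other genes of the pathway came from 4 lists of 58 genes in all, of which 56 were measured, with Phlda3 on both the arrest and the apoptosis list. None of the 56 passed limma's test between the lines and Adeno-1 or between NT-3 and the other arrays (Benjamini-Hochberg over all probe sets), in either direction. Over the whole table limma called 0 probe sets (0%) between the lines and Adeno-1, where 2609 had an unadjusted p under 0.05, and 47 (0.104%) between NT-3 and the other arrays, a number that became 0 when Adeno-1, NT-1 or NT-2 was left out. Their median difference was 0.11 log2 between the lines and Adeno-1 (0.07 without NT-3) and 0.09 between NT-3 and the rest. Over all 18194 genes these medians were -0.0031 and -0.0059. The 38 targets had medians of 0.15 and 0.18 and the 18 regulators of 0.02 and 0.02, a difference that was not tested. Among the 38 targets Adeno-1 was lowest for 21 (55.3%) and NT-3 highest for 24 (63.2%), against 24.7% and 25.7% of all genes and 29.9% and 26.7% of bright ones. For the 7326 genes with a mean level of 8 to 12 these shares were 34.5% and 27.1%. The lists were chosen with earlier results of these data known, so nothing is read from the gaps to the background.

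Among the 18 regulators and partners of p53, Mdm4 had the greatest gap between the lines and Adeno-1. Mdm4, the inhibitory relative of Mdm2, lies on chromosome 1. Its brightest probe set stood at 8.82 in Adeno-1 and at 9.24, 9.22 and 9.43 in NT-1, NT-2 and NT-3, a difference of 0.48 from the clone to the mean of the lines. That probe set is of the kind whose probes can match several transcripts. On the other 3 Mdm4 probe sets, NT-3 minus Adeno-1 ranged from -0.01 to 0.52. Ppm1d, the phosphatase Wip1 that damps p53 signalling and is itself induced by p53, stood at 8.38 and at 8.44, 8.45 and 8.64. The damage adaptor Trp53bp1 stood at 9.37 in Adeno-1, 9.35 in NT-1, 9.39 in NT-2 and 9.00 in NT-3, so that NT-3 was lowest. The kinase Atr differed by 0.13 between the lines and Adeno-1, and Usp7, a deubiquitinase of Mdm2 and p53, by -0.17 between NT-3 and the rest. That Usp7 probe set, its brightest, is of the same kind as that of Mdm4. On the other Usp7 probe sets the difference between NT-3 and the rest ranged from -0.11 to 0.07.

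The 11 arrest targets had medians of 0.24 between the lines and Adeno-1 and of 0.21 between NT-3 and the rest, with Adeno-1 lowest for 7 and NT-3 highest for 7. Btg2, an antiproliferative p53 target, stood at 9.22 in Adeno-1, 9.29 in NT-1, 9.42 in NT-2 and 10.04 in NT-3. Its second probe set had the same order, at 9.17, 9.25, 9.34 and 10.01. For both, NT-1 and NT-2 lay close to Adeno-1 and NT-3 stood apart, the pattern of Pmaip1 at a smaller size (0.73 and 0.76 log2 over the other arrays; limma, Benjamini-Hochberg adjusted p = 0.0891 for the brighter). Ckap2, a spindle protein, was in the same place, at 10.17, 10.11, 10.20 and 10.92 (difference 0.76; limma, Benjamini-Hochberg adjusted p = 0.0558). Ckap2 lies on chromosome 8, where the median NT-3 difference of 444 genes brighter than 8 was 0.33. NT-3 was the highest array for 90.8% of those genes. Btg2 lies on chromosome 1, where the median of 405 such genes was 0.12 and NT-3 was highest for 57.3%. Among the 7326 genes with a mean level of 8 to 12, NT-3 was highest for 27.1%. Mdm4, Ercc5, Phlda3 and Bok also lie on chromosome 1. The part of these shifts in the named genes was not tested. Without the genes of both chromosomes the remaining 33 targets of the 3 target lists had a median NT-3 difference of 0.16. Among these 33, Adeno-1 was lowest for 18 (54.5%) and NT-3 highest for 19 (57.6%). Sfn, the 14-3-3 protein sigma, had another order, at 8.54 in Adeno-1 and at 9.27, 8.93 and 9.12 in NT-1, NT-2 and NT-3, so that all lines were above the clone and NT-1 was highest. Zmat3, an RNA-binding p53 target, stood at 9.54 and at 9.78, 9.82 and 10.02, and Phlda3, an inhibitor of Akt, at 9.93 and at 10.15, 10.10 and 10.44. Gtse1, a microtubule protein that restrains p53, stood at 9.84, 9.83, 9.88 and 10.20.

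The 14 apoptosis targets had smaller medians, 0.07 between the lines and Adeno-1 and 0.15 between NT-3 and the rest. Adeno-1 was lowest for 7 of them and NT-3 highest for 9. Of the 14 genes 11 were bright, whereas all measured genes of the arrest and of the repair and metabolism lists were. Apaf1, the scaffold of the apoptosome, stood at 8.50 in Adeno-1 and at 8.78, 8.81 and 8.97 in the lines, and Casp6, an executioner caspase, at 8.06 and at 8.35, 8.41 and 8.46. Both had Adeno-1 lowest and the lines close together. Eda2r, a death receptor relative on the X chromosome, stood at 7.76 and at 7.94, 7.94 and 8.08, and Bok, a BCL2 family effector, at 9.35, 9.17, 9.21 and 9.56. The death receptor gene Fas stood between 5.50 and 5.56 and Tnfrsf10b between 6.55 and 6.72, under the median level on all arrays (both were picked with their values in view).

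The 14 measured repair and metabolism targets had medians of 0.17 and 0.20, with Adeno-1 lowest for 8 and NT-3 highest for 9. Ercc5, an excision repair nuclease on chromosome 1, stood at 8.22 in Adeno-1, 8.45 in NT-1, 8.56 in NT-2 and 9.12 in NT-3. Sesn1, the sestrin relative of Sesn2, stood at 8.12, 8.23, 8.22 and 8.56, and so had NT-3 highest where Sesn2 had it lowest on its brighter probe set. Ddit4, an mTORC1 inhibitor that p53 and low oxygen both induce, stood at 11.53 and at 11.85, 11.89 and 11.99. Polk, a translesion DNA polymerase, stood at 8.39 and at 8.58, 8.57 and 8.81. Ak1, an adenylate kinase, stood at 8.97, 8.87, 9.07 and 9.30, and the lipid transfer gene Pltp at 9.47, 9.71, 9.93 and 9.66.

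**Figure D3:**
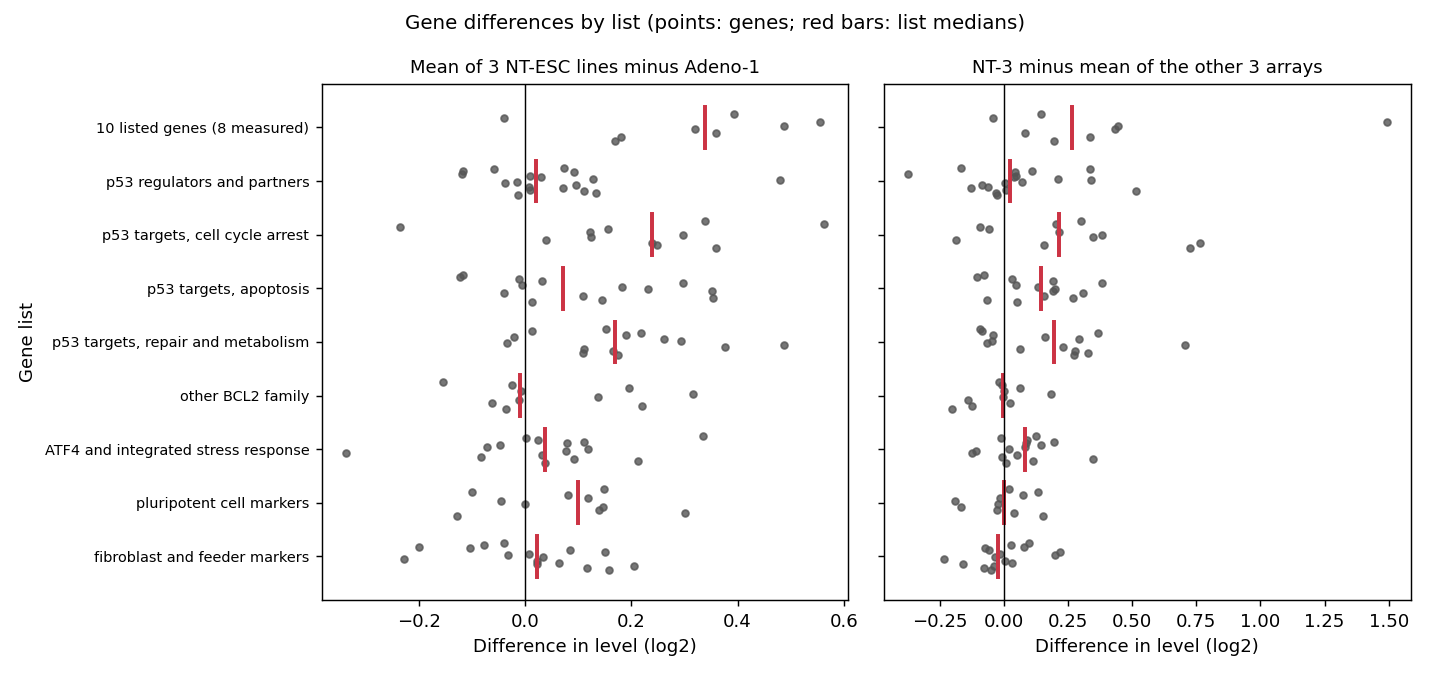
Differences in level (log2, x axes) for the genes of each list (y axis), each by its brightest probe set: left, mean of the 3 NT-ESC lines minus Adeno-1; right, NT-3 minus the mean of the other 3 arrays. Points are genes and red bars list medians; the medians of the listed genes (0.34 and 0.27) and of the arrest targets (0.24 and 0.21) lie right of 0, and those of the other BCL2 family (-0.01 and -0.01) lie at 0.

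Genes that act beside Noxa and Puma without being chosen as p53 targets were given by the 10 measured genes of the BCL2 family. Their medians were -0.01 between the lines and Adeno-1 and -0.01 between NT-3 and the rest. Adeno-1 was lowest for 4 of the 10 (40%) and NT-3 highest for 1 (10%). Over all genes these shares were 24.7% and 25.7%, and over the genes with a mean level of 8 to 12 they were 34.5% and 27.1%. As for the p53 lists, nothing is read from these gaps. Mcl1, the survival protein that Noxa binds, stood at 12.38 in Adeno-1 and at 12.22, 12.21 and 12.26 in the lines (picked with its value in view). Bcl2l2, a survival protein, stood at 8.24 and at 8.48, 8.58 and 8.62, and the effector Bak1 at 9.38 and at 9.74, 9.62 and 9.46. Bmf, a BH3-only protein, differed by 0.20 between the lines and Adeno-1. Bad and Bcl2l1 differed by -0.20 and -0.14 between NT-3 and the rest.

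Pmaip1 and Sesn2 also respond to ATF4, the factor of the integrated stress response, and 15 genes of that response were measured. Their medians were 0.04 and 0.08. Adeno-1 was lowest for 5 of the 15 (33.3%) and NT-3 highest for 7 (46.7%). These shares were 24.7% and 25.7% over all genes, and 34.5% and 27.1% over the genes with a mean level of 8 to 12. Nothing is read from these gaps. Atf4 itself stood at 11.90 in Adeno-1 and at 11.81, 11.80 and 11.83 in the lines, and its targets Ddit3 and Trib3 stood in NT-3 at 8.43 and 9.95, against 8.46 to 8.62 and 9.89 to 10.05 on the other arrays (these 3 were picked with their values in view). Atf3, which p53 also induces, was highest in NT-3, at 8.65 against 8.26 to 8.34, and Slc3a2, an amino acid transporter chain, stood there at 11.95 against 11.72 to 11.81. Chac1, a glutathione-degrading enzyme, was highest in Adeno-1, at 10.59 against 10.21 to 10.30. Asns differed by 0.21 and Vldlr by 0.34 between the lines and Adeno-1, and Ppp1r15a by 0.14 between NT-3 and the rest.

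The genes whose 4-array profile was nearest to that of Pmaip1, by Euclidean distance between the 3 differences from Adeno-1, were Phlda1 (distance 0.58), Ppp2r5a (0.60), Dlc1 (0.61), Adgre5 (0.62) and Ankrd37 (0.63). Phlda1 stood at 8.19, 8.59, 8.44 and 9.30 in Adeno-1, NT-1, NT-2 and NT-3. None of these 5 came as high over Adeno-1 in NT-3 as Pmaip1. Since Pmaip1 was chosen for its level in NT-3, nothing is read from that. Dlc1, Adgre5 and Ankrd37 lie on chromosome 8 and Ppp2r5a on chromosome 1. The genes nearest to Perp were Fbxo2 (0.08), Adam9 (0.10), Dnajc6 (0.10), Tmbim1 (0.12) and Cdyl2 (0.13). Adam9 and Cdyl2 lie on chromosome 8 and Tmbim1 on chromosome 1. The distances for Perp and for Pmaip1 are not compared, since few genes lie near a profile as extreme as that of Pmaip1. Fbxo2 stood at 8.18, 8.63, 8.41 and 8.84, almost the values of Perp. With 4 arrays such nearness is a description of 3 differences per gene.

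**Figure D4:**
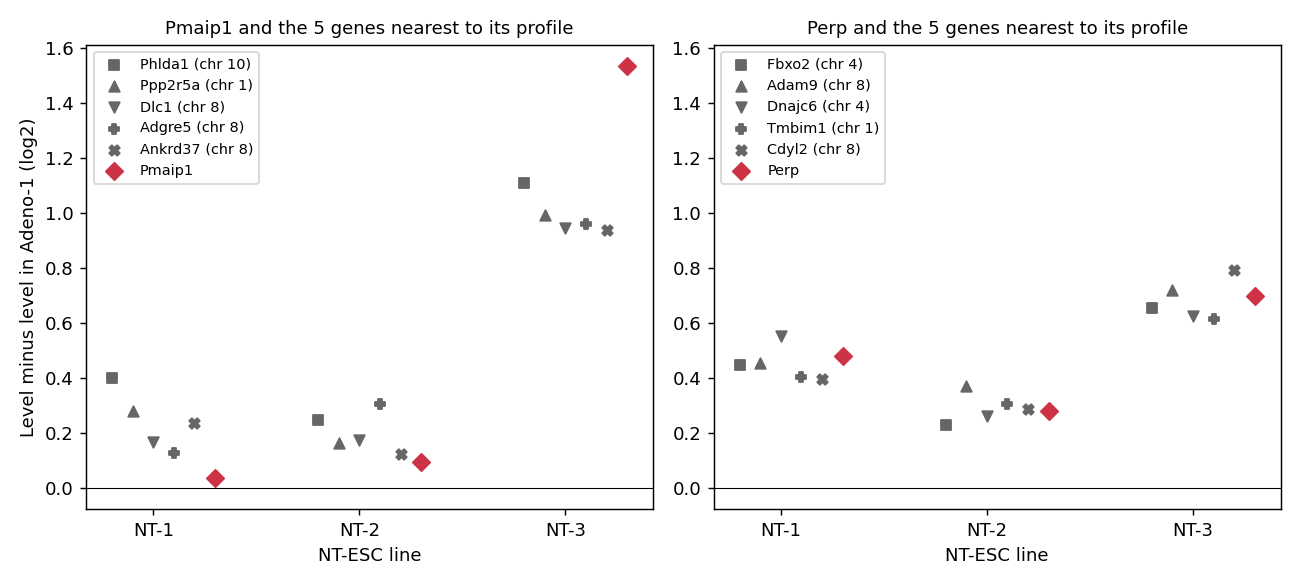
Difference in level from Adeno-1 (log2, y axes) in each NT-ESC line (x axes) for Pmaip1 (left) and Perp (right), as red diamonds, with the 5 genes nearest to each as grey symbols and their chromosomes in the legend. In NT-3 Pmaip1 lies above its 5 neighbours, while Perp lies among its own.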

How the data were processed

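The deposited table holds log2 values of 45101 probe sets, 64 of them controls. Per the labels' protocols, the authors labelled total RNA with biotin; how the arrays were background-corrected and summarized is not given in the sources used here. On each array 2 raised to the deposited value had a mean of 1 and ran from 0.422 to 2.03, so a value has the form of the log2 of a log intensity over the array mean. Levels were rebuilt as 7 times that ratio. Symbols came from the platform annotation (34945 probe sets with 1 gene, 932 with several, 9160 unnamed), updated through RefSeq (GRCm38.p6) for 34741. Where 1 value per gene was needed, the probe set of highest mean was taken. The lmFit and eBayes functions of limma 3.58.1, run in R 4.3.3 (two-sided tests, calls at a Benjamini-Hochberg adjusted p under 0.05) were applied to all 45037 probe sets, with 2 residual degrees of freedom and the lone array assumed to vary like the others, and were tested on simulated data. The adjusted p-values measure the spread between these arrays only, and 4 arrays limit the precision.

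The members and lists were chosen with earlier results of these data known. Named were all member probe sets, up to 4 genes of each other p53 list and up to 3 of the BCL2 and stress response lists by each difference among bright genes, and the 5 genes nearest to Pmaip1 and to Perp; any other gene is marked in the text as picked afterwards. Alternatives were the scale, quantile and cyclic loess normalization, the mean of a gene's probe sets, a filter on dim probe sets, and leaving out arrays.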

Additional observations from a re-analysis of the deposited data

How the results depend on the processing

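The medians of the members and of the other p53 lists kept their direction under each alternative run. The count of probe sets called between NT-3 and the other arrays, 47 of 45037, became 0 with the deposited log values as given. It ranged from 0 to 0 when Adeno-1, NT-1 or NT-2 was left out, with fewer samples in the fit. With the mean of all probe sets of a gene it became 168 of 18194, a count of genes rather than of probe sets. The count between the lines and Adeno-1 was 0 under every alternative run. The members' median between the lines and Adeno-1, 0.339, became 0.233 with the mean of all probe sets of a gene. It ranged from 0.156 to 0.391 when a line was left out. For the other p53 lists the median of 0.110 became 0.072 with quantile normalization and ranged from 0.073 to 0.116 when a line was left out, and the NT-3 median of 0.092 became 0.062 with the mean of all probe sets; the cause was not tested. Of single genes, the difference of Cdkn1a between NT-3 and the rest, 0.081, was reversed to -0.043 without Adeno-1 and ranged from -0.043 to 0.165 over the arrays left out. Counts of members 1.2-fold apart were not run for the deposited values, which are on another scale. Counts of member probe sets were not run for the mean per gene. These 1.2-fold alternatives were chosen after seeing the data. No paired analysis was possible, since there was 1 array of Adeno-1 and the labels pair it with no single line. Signal over background limits the dim probe sets, and no detection call was used.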

Other observations

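Of the regulators under the median level, Cdkn2a, whose alternative product Arf shields p53 from Mdm2, stood at 6.59 in Adeno-1, 6.57 in NT-1, 6.47 in NT-2 and 7.05 in NT-3, and so was highest in NT-3 by 0.51 over the mean of the other arrays. Trp73, a relative of p53, stood at 6.71, 6.48, 6.57 and 6.92 in the same order on its brighter probe set, and between 6.17 and 6.25 on the other. Both genes were picked with their values in view, lie close to the median level of all probe sets, and were not called by limma.

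Over all 126 probe sets of the other p53 genes, rather than 1 per gene, Adeno-1 was lowest for 53 (42.1%) and NT-3 highest for 52 (41.3%). These shares were 23.8% and 25.7% of all probe sets in the table and 29.3% and 27.2% of those at or above the median level. The lists were chosen with earlier results known, so nothing is read from these gaps. Among the 34 listed p53 targets with promoter windows, an abutting pair of half-sites was found in 5 genes: Tigar, Aen, Ckap2, Rps27l and Gtse1. These were 6 of 43 windows (14%), against 0.572% of all windows. Since the genes were listed as p53 targets, nothing is read from that gap. Of the 5 genes with a pair, Ckap2, on chromosome 8, and Gtse1 differed between NT-3 and the rest by 0.76 and 0.35. Rps27l differed by 0.16, Aen by 0.05 and Tigar by -0.08. A link between the pairs and these differences was not tested.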
